A study of Mus musculus with 4 samples.

Results

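The Notch pathway was examined through 10 genes: the receptors Notch1 and Notch2, the ligands Dll1, Dll4, Jag1 and Jag2, the DNA-binding protein Rbpj, its target Hes1, and the fate regulators Atoh1 and Gfi1. The members were taken as every probe set, the group of oligonucleotides on an Affymetrix array that reports a transcript, to which the platform's gene table gives one of these symbols. They had 18 probe sets of the 45101 on the array, and none of the 18 was shared with another gene. The cultures were mouse intestinal organoids, epithelium grown as 3-dimensional structures in Matrigel, whose Tacc3 gene, which encodes a mitotic spindle protein, was either wt/wt or fl/fl. Each was collected at day 4 or day 6, which gave 4 groups of 1 array: Tacc3 wt/wt at day 4, Tacc3 fl/fl at day 4, Tacc3 wt/wt at day 6 and Tacc3 fl/fl at day 6. Every culture, wt/wt included, received 4-hydroxytamoxifen (4OHT) for 24 hours, and the design text names both Apc and Tacc3 as genes to be recombined. Apc encodes the tumour suppressor that holds back Wnt signalling. In the sample descriptions day 4 material is called normal and day 6 material Apc-deficient, so day and described Apc state cannot be told apart, and the labels do not name the Cre driver, the floxed exons or the number of animals or cultures behind an array.

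Notch is a signal between touching cells. A ligand of the Delta or Jagged family on one cell binds a receptor on its neighbour, the receptor is cut by ADAM proteases and then by gamma-secretase, and the freed intracellular part joins Rbpj on DNA and turns on repressors such as Hes1. In the intestinal crypt, Hes1 represses Atoh1, the factor that commits a progenitor to the secretory cell types, so that signal-receiving cells become absorptive while Atoh1-expressing cells display Dll1 and Dll4 to their neighbours. Gfi1 acts after Atoh1 and favours goblet and Paneth cells over hormone-producing cells.

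Promoters are shown for genes on both sides of this switch: Dll1 and Atoh1, which mark the secretory side, Rbpj, which carries the signal to DNA, and Hes5, a relative of Hes1 that Notch also targets. The sequences are RefSeq's, of the GRCm38.p6 build, and run 5′ to 3′ from 250 bases before to 50 bases after the outermost start listed for each gene, on the strand of the gene. Capitals mark the letters TGGGAA, the core that Rbpj is known to bind, and CACNAG, the N box bound by Hes proteins, each searched on both strands.
Dll1, chr17:15376883-15377182, minus strand: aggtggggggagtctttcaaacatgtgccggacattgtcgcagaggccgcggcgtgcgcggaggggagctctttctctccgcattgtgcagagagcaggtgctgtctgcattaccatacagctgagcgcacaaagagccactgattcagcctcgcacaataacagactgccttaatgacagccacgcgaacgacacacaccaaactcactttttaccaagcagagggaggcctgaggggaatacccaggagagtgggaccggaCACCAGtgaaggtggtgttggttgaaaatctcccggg
Atoh1, chr6:64728875-64729174, plus strand: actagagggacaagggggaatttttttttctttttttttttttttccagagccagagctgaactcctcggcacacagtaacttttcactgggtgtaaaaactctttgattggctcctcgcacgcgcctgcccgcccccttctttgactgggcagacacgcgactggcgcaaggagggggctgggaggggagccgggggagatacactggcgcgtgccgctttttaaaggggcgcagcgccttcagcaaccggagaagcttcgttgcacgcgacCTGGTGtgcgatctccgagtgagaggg
Rbpj, chr5:53590096-53590395, plus strand: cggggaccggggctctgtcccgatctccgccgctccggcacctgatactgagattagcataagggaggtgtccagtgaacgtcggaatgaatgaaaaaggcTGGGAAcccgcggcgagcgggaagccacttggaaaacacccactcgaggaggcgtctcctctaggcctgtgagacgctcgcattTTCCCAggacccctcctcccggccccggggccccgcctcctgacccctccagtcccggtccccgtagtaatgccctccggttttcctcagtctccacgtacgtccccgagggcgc
Hes5, chr4:154960673-154960972, plus strand: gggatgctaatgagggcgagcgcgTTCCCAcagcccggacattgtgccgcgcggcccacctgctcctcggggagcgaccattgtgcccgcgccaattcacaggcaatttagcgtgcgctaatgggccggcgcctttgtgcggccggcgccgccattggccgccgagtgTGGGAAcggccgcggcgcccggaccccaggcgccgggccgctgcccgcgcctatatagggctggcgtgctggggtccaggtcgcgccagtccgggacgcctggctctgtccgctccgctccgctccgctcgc

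The Rbpj promoter held TGGGAA at 2 places, 149 and 65 bases before the start, and the Hes5 promoter at 2 places, 226 and 82 bases before it, once on each strand in both. Of all 32851 promoters in the table, 25.6% held TGGGAA and 3.79% held it more than once. The table had a promoter for 9 of the 10 members, all but Hes1, and Rbpj was the only member of these with TGGGAA. The letters CACNAG lay 14 bases into the Dll1 transcript and 24 bases into the Atoh1 transcript, and 42.5% of all promoters held them. The 9 members had 12 promoters in the table, and 5 of the 12 held CACNAG, a share close to that of all promoters. They belonged to Dll1, Atoh1, Dll4, Notch1 and Notch2. A match describes the letters and does not show that a protein was bound there.

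The arrays differed in quality measures along with the days. The ratio of signal from the 5′ and the 3′ part of the Actb transcript lay between 0.0610 and 0.0627 at day 4 and between 0.180 and 0.261 at day 6, and that of Gapdh between 0.142 and 0.208 and between 0.411 and 0.524. Median intensities over all probe sets ran from 15.4 to 17.7. Added hybridization controls were 2.56-fold (wt/wt) and 2.44-fold (fl/fl) brighter at day 4, and added poly-A spike controls 2.17-fold and 2.18-fold. The part of these measures in the day differences below was not tested. Epithelial markers were all measured, 14 of 14 above the filter on dim genes, and the summed intensity of that list ran from 22705 to 40571. The summed intensity ran from 106 to 171 over the endothelial list and from 143 to 243 over the mesenchymal list, highest on the wt/wt day 4 array in both. Of the markers of other cell types, 1 of 10 endothelial, 3 of 12 mesenchymal and 6 of 12 immune genes passed, and the brightest endothelial and mesenchymal markers on any array read 41.3 and 45.6. Pecam1, Cdh5 and Kdr of the endothelium read at most 25.6, 10.3 and 14.6. The immune list summed to between 1296 and 3077, nearly all from Lyz2 (up to 2857), which Paneth cell lists also hold; its next brightest gene, Cd4, read up to 68.3, and Ptprc at most 6.8. Tacc3 itself read 184 (wt/wt) and 59.8 (fl/fl) at day 4, and 167 and 49.7 at day 6. Apc read 27.9 and 53.5 at day 4 and 122 and 149.6 at day 6, higher on the arrays described as Apc-deficient; where its probes lie relative to any recombined part is not known here, so this checks nothing about recombination.

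**Figure D1:**
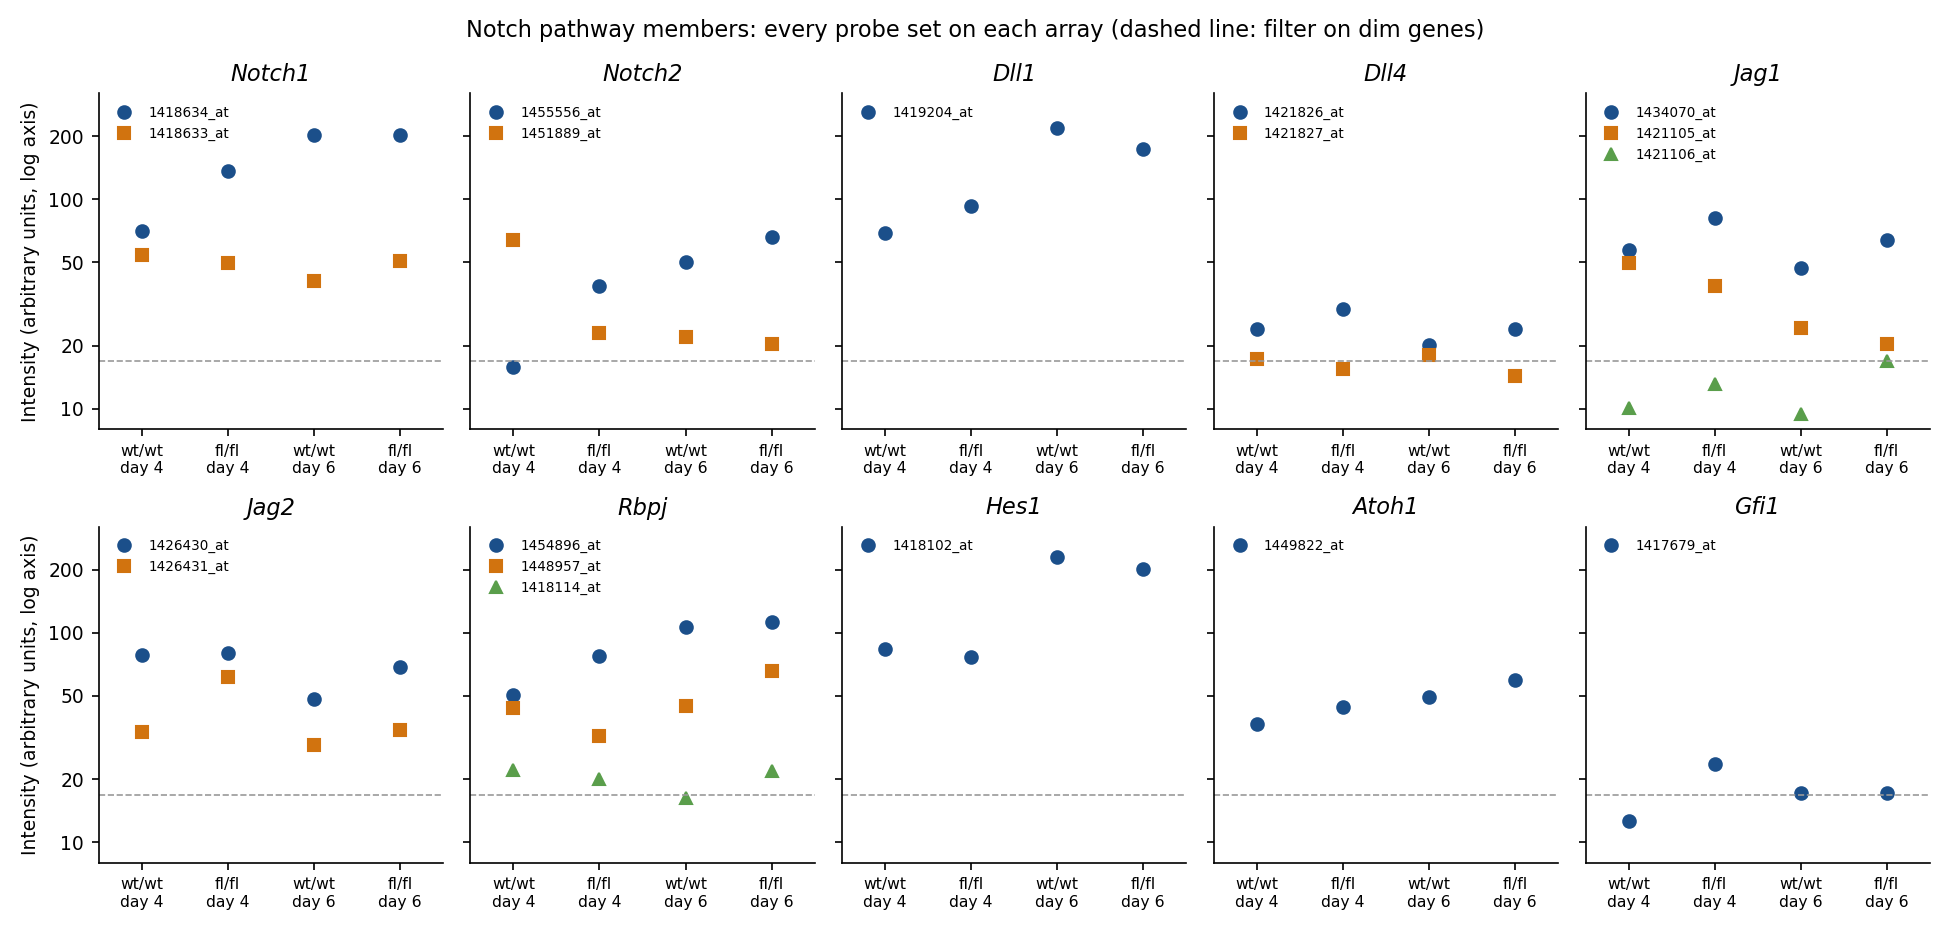
Intensity (log axis, arbitrary units) of each of the 18 probe sets on each of the 4 arrays, with 1 panel per gene, 1 symbol per probe set and the filter on dim genes as a dashed line at 16.9. The Dll1 and Hes1 points sit higher on both day 6 arrays than on both day 4 arrays, while the pair of Notch2 probe sets runs in opposite directions.

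Values below are the deposited linear intensities, and differences are on the scale log2(intensity + 16), where 1 is a doubling of intensity plus 16, so that differences of dim genes are understated. With 1 array per group there is no replicate error and no test was made, since a fit of genotype and day together would count any genotype difference between the days as error, and a difference of at least 1 (2-fold) is described by its size only. Where a gene had several probe sets, the one of highest mean stood for it, and 11392 of 18193 genes, among them all 10 members, had a mean at or above the median of all probe sets, an intensity of 16.9. Intensities of different probe sets cannot be set against each other as amounts of RNA.

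The receptors gave different answers on different probe sets. The brighter Notch1 probe set, 1418634_at, read 70.7 for wt/wt and 136 for fl/fl cultures at day 4, and 203.6 and 202.9 at day 6. It was thus lowest on the wt/wt day 4 array, intermediate in fl/fl cultures of that day, and level between the genotypes at day 6. The day difference was 1.34 for wt/wt and 0.52 for fl/fl cultures, and the genotype difference 0.81 at day 4 and -0.0050 at day 6. The other Notch1 probe set, 1418633_at, read 54.2 and 49.5 at day 4 and 40.7 and 50.7 at day 6. It shared neither pattern, with day differences of -0.31 and 0.03.

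Notch2, the other receptor of the crypt epithelium, was recorded by a pair of probe sets that went opposite ways. Probe set 1455556_at read 15.8 for wt/wt and 38.7 for fl/fl cultures at day 4, and 50.1 and 66.2 at day 6. Probe set 1451889_at read 63.8 and 23.2 at day 4, and 21.9 and 20.4 at day 6. Both set the wt/wt day 4 array apart from the other 3, the former as its lowest value and the latter as its highest. In wt/wt cultures their day differences were 1.06 and -1.07, and between genotypes at day 4 they were 0.78 and -1.03, the only genotype difference of 2-fold among the 18 probe sets. In fl/fl cultures the day differences were 0.59 and -0.11. Of 4816 genes with several probe sets above the filter, 124 (2.57%) had probe sets 2-fold apart in opposite directions between the days in wt/wt cultures, and Notch2 was the only one of 5 such members among them. The mean of the Notch2 probe sets differed by -0.0085 between the days in wt/wt cultures. No direction is therefore given for Notch2.

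Dll1 was the ligand with the largest day difference, and the other 3 ligands were lower at day 6 by less than 2-fold on their representing probe sets. Dll1, the Delta ligand displayed by early secretory progenitors, read 69.3 for wt/wt and 92.9 for fl/fl cultures at day 4, and 218 and 173 at day 6. Both day 6 arrays lay above both day 4 arrays, and the genotypes changed places: fl/fl was the higher at day 4 and wt/wt at day 6. The day difference was 1.46 for wt/wt and 0.79 for fl/fl cultures, larger than that of 92.2% and 82.6% of the genes above the filter. The genotype difference was 0.35 at day 4 and -0.31 at day 6.

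Dll4, a Delta ligand that acts alongside Dll1 in the crypt, was dim throughout. Probe set 1421826_at read 24.1 and 30.04 at day 4 and 20.2 and 24.1 at day 6, in wt/wt and fl/fl cultures. Its wt/wt day 4 and fl/fl day 6 values were identical to every deposited digit, as were values of at least 2 arrays in 1271 probe sets (2.82%) of the table. Probe set 1421827_at lay below the filter with values between 14.3 and 17.998. No Dll4 difference exceeded 0.20 in size on either probe set.

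The Jagged ligands leaned the other way from Dll1 between the days. Jag1, which the brightest of its probe sets, 1434070_at, recorded at 57.6 for wt/wt and 81.4 for fl/fl cultures at day 4 and at 47.1 and 63.7 at day 6, was highest in fl/fl cultures at day 4. Its day differences were -0.22 and -0.29 and its genotype differences 0.40 and 0.34. Probe set 1421105_at read 49.8 and 38.6 at day 4 and 24.2 and 20.3 at day 6. It too was lower at day 6, by 0.71 and 0.59, but on both days fl/fl was the lower genotype, by 0.27 and 0.15, so the direction between genotypes depended on the probe set. The third, 1421106_at, stayed below the filter, between 9.43 and 16.9.

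Jag2, the second Jagged ligand, read 78.1 for wt/wt and 80.1 for fl/fl cultures at day 4, and 48.6 and 68.8 at day 6, on probe set 1426430_at. The wt/wt day 6 array was the lowest of the 4, with a day difference of -0.54 in wt/wt against -0.18 in fl/fl cultures. Probe set 1426431_at read 33.7 and 61.7 at day 4, and 29.1 and 34.3 at day 6. Here the fl/fl day 4 array stood above the rest, and the genotype difference was 0.64 at that day and 0.16 at day 6, against 0.03 and 0.39 on the brighter probe set.

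Rbpj, the DNA-binding partner of the cut receptor, was higher at day 6 on its brightest probe set. Probe set 1454896_at read 50.7 for wt/wt and 77.8 for fl/fl cultures at day 4, and 107 and 113 at day 6. As for the brighter Notch1 probe set, the wt/wt day 4 array was the lowest and the genotypes lay close together at day 6. The day differences were 0.88 and 0.46, and the genotype differences 0.49 and 0.07. Probe set 1448957_at read 43.7 and 32.1 at day 4 and 44.7 and 65.4 at day 6, with day differences of 0.02 for wt/wt and 0.76 for fl/fl cultures. The third, 1418114_at, varied little, between 16.2 and 22.1. In fl/fl cultures all 3 probe sets were higher at day 6, by 0.46, 0.76 and 0.07, while in wt/wt cultures they gave 0.88, 0.02 and -0.24.

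Hes1, the repressor that Notch turns on in absorptive progenitors, was the single member at least 2-fold higher at day 6 in both genotypes. Its probe set read 83.8 for wt/wt and 77.0 for fl/fl cultures at day 4, and 229.9 and 201 at day 6. The 2 day 4 arrays lay close together, as did the 2 day 6 arrays, and wt/wt was slightly the higher on each day. The day difference was 1.30 for wt/wt and 1.22 for fl/fl cultures, and the genotype difference -0.10 at day 4 and -0.18 at day 6. Unlike Notch1, Dll1 and Rbpj, Hes1 thus had nearly the same day difference in both genotypes. The difference in fl/fl cultures exceeded that of 92.1% of the genes above the filter.

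Atoh1, the factor that Hes1 represses, had small differences in every comparison. Its probe set read 36.7 for wt/wt and 44.2 for fl/fl cultures at day 4, and 49.5 and 59.9 at day 6. Atoh1 was higher at day 6 by 0.31 for wt/wt and 0.34 for fl/fl cultures, and fl/fl exceeded wt/wt by 0.19 at day 4 and 0.21 at day 6. With each array centred on the median of the genes above the filter, the wt/wt day difference turned to -0.07 and the day 4 genotype difference to -0.02. Neither of these therefore had a settled direction. Over the settings tried, the fl/fl day difference lay between 0.13 and 0.41 and the day 6 genotype difference between 0.13 and 0.26.

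Gfi1, the zinc-finger repressor that acts after Atoh1, lay at the edge of the filter. It read 12.7 for wt/wt and 23.8 for fl/fl cultures at day 4, and 17.3 in both at day 6, again identical to every digit. The wt/wt day 4 array was the lowest and the fl/fl day 4 array the highest. The genotype difference was 0.47 at day 4 and the day differences were 0.21 and -0.26. Without the fl/fl day 4 array the mean of Gfi1 would lie below the filter, so its passing rests on the array where it was highest. Under at least 1 alternative setting the wt/wt day difference changed sign, so it has no settled direction.

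The comparison of day 6 with day 4 addresses what differed between cultures described as Apc-deficient and as normal. In wt/wt cultures, 4 of 10 members were at least 2-fold higher at day 6 (Notch1, Dll1, Hes1 and, by 1 of its opposed probe sets, Notch2) and 0 were 2-fold lower, where 18.3% of the 11392 genes were higher and 2.97% lower. In fl/fl cultures 1 member, Hes1, was 2-fold higher and 0 were lower, against 12.2% and 2.9% of genes. In both genotypes at once, 1 of 10 members was higher and 0 lower, against 9.37% and 1.35%, so the share of members 2-fold in both was close to that of all genes. The members' median difference was 0.60 for wt/wt and 0.40 for fl/fl cultures, beside 0.17 and 0.00 over all genes. With its sign, the day difference was higher for wt/wt than for fl/fl cultures for 8 of 10 members and for 58.0% of genes; by size alone it was larger for 6 of 10 members and for 60.2% of genes.

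The size of these differences depended on scale. After quantile normalization, which gives the 4 arrays the same distribution, the split of 2-fold genes in wt/wt cultures moved from 2082 higher and 338 lower to 1183 and 1107, and in fl/fl cultures from 1394 and 330 to 928 and 674. The median over all genes moved from 0.17 to -0.13 and from 0.00 to -0.12. Centring each array on the genes above the filter gave 1048 higher and 1348 lower in wt/wt and 931 and 677 in fl/fl cultures. Relative to the median of all genes, the day difference of Hes1 was 1.13 for wt/wt and 1.22 for fl/fl cultures as deposited, and 0.99 and 1.08 after quantile normalization. That of Dll1 was 1.29 and 0.79, and 1.17 and 0.66. The 2-fold count in wt/wt cultures was 2 after quantile normalization (Notch2 and Dll1), 2 with probe sets averaged per gene (Dll1 and Hes1), and 1 with a pseudocount of 64 or with centring on the genes above the filter (Dll1 in both). In fl/fl cultures Hes1 fell short with a pseudocount of 64 (0.91) and after quantile normalization (0.97).

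**Figure D2:**
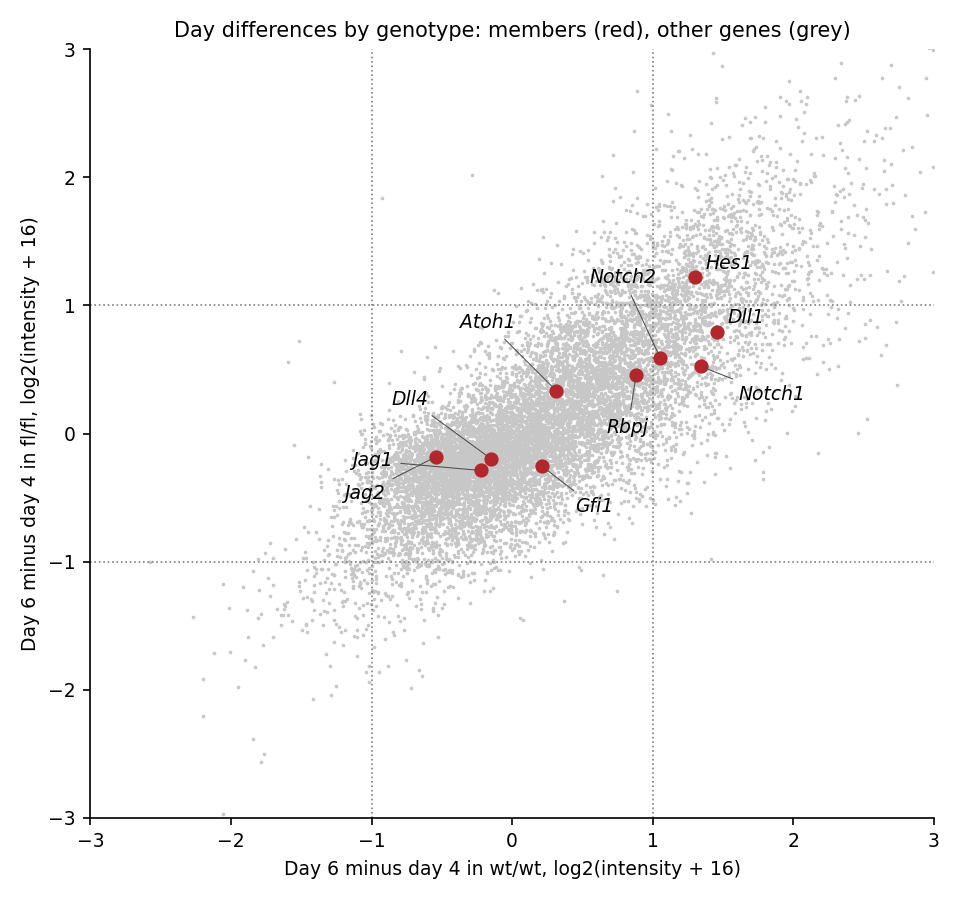
Day 6 minus day 4 in wt/wt (horizontal) against fl/fl cultures (vertical), both on the log2(intensity + 16) scale, for 11392 genes in grey and the 10 members in red; dotted lines mark 2-fold, and 32 genes lie outside the axes. Hes1 lies past both lines at 1.30 and 1.22, Dll1, Notch1 and Notch2 past the wt/wt line alone, and the Jagged ligands and Dll4 below 0 on both axes.

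Setting fl/fl against wt/wt cultures addresses what differed where Tacc3 was floxed. On the probe sets that represent the genes, 0 of 10 members were 2-fold higher and 0 were 2-fold lower in fl/fl cultures on either day. Over all genes, 1.38% were higher and 0.105% lower at day 4, and 0.211% higher and 0.571% lower at day 6. The members' median was 0.38 at day 4 and 0.11 at day 6, beside 0.15 and 0.05 over all genes. Notch1 (0.81) and Notch2 (0.78) had the largest day 4 differences, above those of 96.4% and 95.8% of genes, and Jag2 had the largest at day 6 (0.39). The other probe sets of Notch1 and Notch2 differed by -0.10 and -1.03 at day 4. On the representing probe sets, Hes1 alone among the members was lower on both days where Tacc3 was floxed, by amounts that the design cannot set against a replicate spread. Under at least 1 alternative setting the genotype difference changed sign for Notch2, Dll4, Jag2 and Atoh1 at day 4 and for Notch1, Dll4 and Gfi1 at day 6. On the wt/wt arrays the added controls for hybridization read 1.42-fold higher at day 4 and 1.41-fold at day 6. The added poly-A spike controls read 1.62-fold and 1.64-fold higher there. The part of both sets of controls in these differences was not tested. With a pseudocount of 4, Notch2 reached 1.11 at day 4. After quantile normalization the day 4 split of all 2-fold genes moved from 157 higher and 12 lower to 117 and 40, and after centring on the genes above the filter to 44 and 47.

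**Figure D3:**
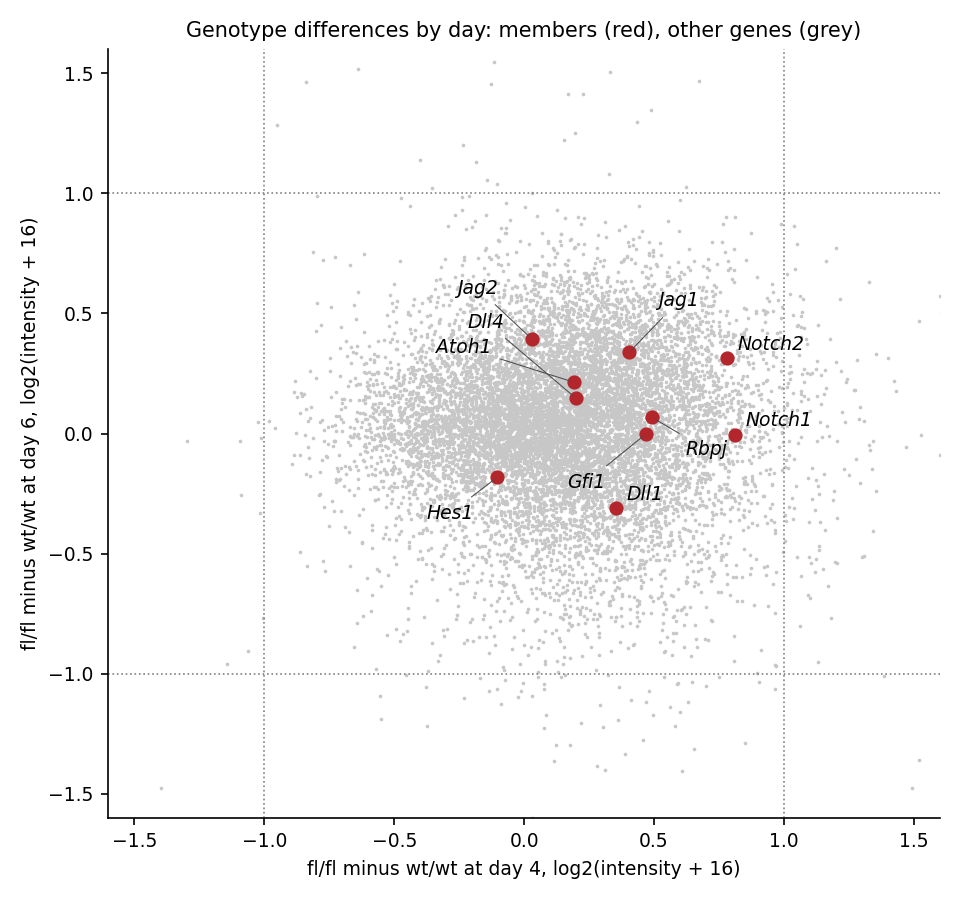
fl/fl minus wt/wt at day 4 (horizontal) against day 6 (vertical) on the log2(intensity + 16) scale, for 11392 genes in grey and the 10 members in red; dotted lines mark 2-fold, and 16 genes lie outside the axes. All 10 members lie inside the lines, with Notch1 and Notch2 the farthest right at 0.81 and 0.78.

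Among the other genes that make, cut or modify Notch and its ligands, differences went both ways. Of 39 genes listed, 35 were on the array and 30 passed the filter; 5 were 2-fold higher and 0 lower at day 6 in wt/wt cultures, and 1 higher and 2 lower in fl/fl cultures, beside the 18.3% and 2.97%, and 12.2% and 2.9%, of all genes. The wt/wt counts were 3 higher and 5 lower after quantile normalization, 2 and 5 with centring on the genes above the filter, and 0 and 0 with probe sets averaged. For fl/fl, both scalings gave 0 higher and 2 lower, and leaving out x_at and s_at probe sets gave 1 and 0. Their median day differences were -0.20 and -0.23. Adam10, the protease that makes the first activating cut, read 99.4 for wt/wt and 220.3 for fl/fl cultures at day 4 and 406 and 458 at day 6. It was lowest on the wt/wt day 4 array, as the brightest probe sets of Notch1 and Rbpj were, though not their others. The day differences of Adam10 were 1.87 and 1.004. Its genotype difference of 1.03 at day 4 was the only 2-fold one of the list. That difference fell short of 2-fold under quantile normalization, centring on the genes above the filter, averaged probe sets and a pseudocount of 64. Numb, an inhibitor of the receptor, had the same order, with 40.4 and 89.4 at day 4 and 165 and 176 at day 6, and day differences of 1.68 and 0.86.

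The other genes named from this list included parts of gamma-secretase and of the receptor's folding and turnover. Ncstn, the nicastrin subunit of gamma-secretase, was higher at day 6 by 1.24 for wt/wt and 0.38 for fl/fl cultures, and Psenen, another subunit, by 0.84 and 0.99. Pofut1, the fucosyltransferase that modifies Notch in the endoplasmic reticulum, was higher by 1.21 and 0.25, and the ubiquitin ligase gene Dtx3l by 1.21 and 0.57. Fbxw7, the ligase adaptor that marks the intracellular part of Notch for degradation, differed by -0.74 and -1.01 between the days, and Dtx2, another ubiquitin ligase gene, by -0.74 and -1.02; the probe sets of both are of types that can also bind related transcripts. Furin, which cleaves the receptor during its maturation, differed by 0.67 and 0.34 between genotypes. The receptors Notch3 and Notch4 read at most 26.4 and 12.5.

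Hes1 was accompanied by some of the other genes listed as Notch targets and not by others. Of 15 genes, 11 passed the filter. Of these, 2 were 2-fold higher and 0 lower at day 6 in both genotypes, beside 9.37% and 1.35% of all genes. The median differences were -0.04 and -0.05. The 2 were Olfm4, which marks stem cells of the crypt base, higher by 2.95 and 3.10, and Myc, which Wnt signalling also controls, by 2.41 and 1.16. Nrarp, a feedback inhibitor that Notch induces, read 46.8 and 52.4 at day 4 and 91.4 and 118 at day 6. As with Hes1, both day 6 arrays lay above both day 4 arrays, with day differences of 0.77 and 0.97. Ascl2, a stem cell factor, differed by 0.59 and 0.89.

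Other relatives of Hes1 did not share its pattern. Hes5, whose promoter is shown above, read 56.1 and 32.6 at day 4 and 24.8 and 27.6 at day 6, highest on the wt/wt day 4 array, and Hes6 stayed between 490.2 and 517. Hey1 and Hey2 were below the filter, at no more than 18.8 and 5.30. Between genotypes Olfm4 differed by -1.06 and -0.91 and Myc by 1.11 and -0.14, the only 2-fold values of the list; under quantile normalization or centring on the genes above the filter, 0 genes were higher and 1 lower at day 4. Nrip1 differed by 0.48 and 0.69.

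**Figure D4:**
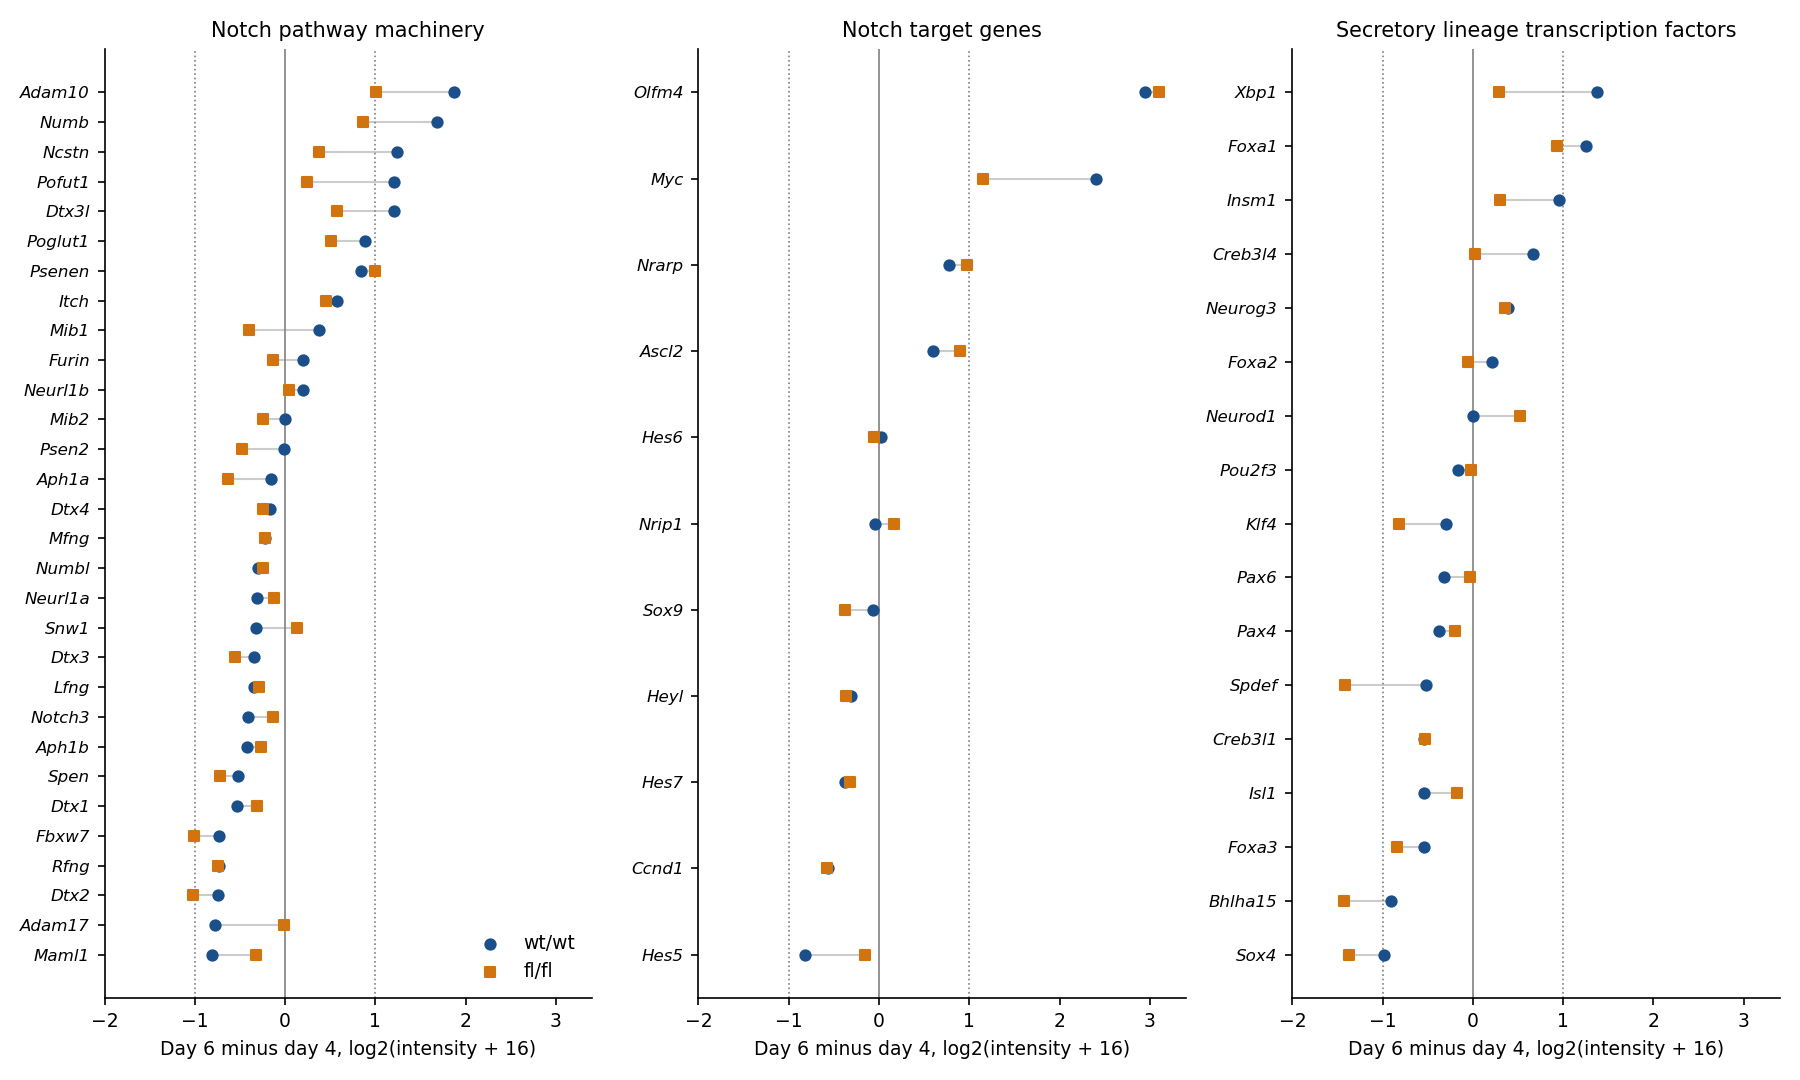
Day 6 minus day 4 on the log2(intensity + 16) scale in wt/wt (blue circles) and fl/fl cultures (orange squares) for the genes above the filter of 3 lists: Notch pathway machinery, Notch target genes and secretory lineage transcription factors. Adam10, Olfm4 and Myc lie at or past the dotted 2-fold line in both genotypes, and Spdef, Bhlha15 and Sox4 lie past the lower line in fl/fl cultures.

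The transcription factors that act with or after Atoh1 differed in both directions between the days. Of 21 genes, 17 passed the filter. In wt/wt cultures 2 were 2-fold higher and 0 lower, beside 18.3% and 2.97% of all genes. In fl/fl cultures 0 were higher and 3 lower, beside 12.2% and 2.9%. The medians were -0.30 and -0.06. Quantile normalization and centring on the genes above the filter each turned the wt/wt counts to 0 higher and 2 lower and gave 0 and 5 for fl/fl, so the list's direction for wt/wt is not settled. Spdef, which drives goblet and Paneth cell maturation, read 134 for wt/wt and 264 for fl/fl cultures at day 4 and 88.2 and 89.0 at day 6. The fl/fl day 4 array was the highest, and the genotype difference was 0.90 at day 4 and 0.01 at day 6. Bhlha15, a factor of secretory cell architecture, differed by -0.91 and -1.43 between the days and Sox4 by -0.99 and -1.38. Foxa1, which acts in goblet and enteroendocrine cells, was higher by 1.25 and 0.93, and Xbp1, which expands the secretory apparatus, by 1.38 and 0.29. Insm1 and Pax4, factors of hormone-producing cells, had genotype differences of -0.05 and -0.71 and of -0.42 and -0.24. Insm1 read 14.9 and 13.8 at day 4 and 44.1 and 20.8 at day 6. Without the wt/wt day 6 array its mean would lie below the filter. Of other factors of hormone-producing cells, Neurog3 differed by 0.29 and 0.25 and Neurod1 by 0.05 and 0.58.

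Markers of the absorptive side of the switch were higher at day 6. Of 13 enterocyte genes above the filter, 9 were 2-fold higher for wt/wt and 11 for fl/fl, and 0 lower in each genotype. Over all genes, 18.3% and 12.2% were higher and 2.97% and 2.9% lower. Enpep and Mep1a, peptidases of the brush border, had day differences of 4.44 and 2.63 for wt/wt and of 4.75 and 2.78 for fl/fl. Fabp2, a fatty acid carrier, differed by 2.44 and 3.395. Between genotypes at day 6, Apoa4 (1.45) and Slc2a2 (1.04), a lipoprotein and a sugar transporter gene, were 2-fold higher with floxed Tacc3. Over all genes 0.211% were. Slc2a2 read 6.97 and 5.37 at day 4, under the filter intensity of 16.9, and 46.7 and 113 at day 6. Without the fl/fl day 6 array its mean would lie below the filter, so its place in the list rests on the array where it was high. Of 12 crypt base stem cell genes, 8 and 6 were 2-fold higher at day 6 and 0 lower, among them Smoc2 (2.55 and 1.44) and Lrig1 (3.03 and 1.70). Lrig1 was also 1.02 higher in fl/fl cultures at day 4, but under quantile normalization, centring on the genes above the filter, averaged probe sets, a pseudocount of 64 or without x_at and s_at probe sets, 0 genes of the list were 2-fold higher there.

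Secretory markers differed by cell type. Of 9 Paneth cell genes, 0 were 2-fold higher at day 6, and 2 (wt/wt) and 6 (fl/fl) were lower. Over all genes, 18.3% (wt/wt) and 12.2% (fl/fl) were higher and 2.97% and 2.9% lower. Mmp7, the protease that activates Paneth cell defensins, read 2701 and 6116 at day 4 and 1702 and 1690.2 at day 6. It was highest on the fl/fl day 4 array, as Spdef was. Of 11 goblet cell genes, 1 was higher and 0 lower for wt/wt, and 0 higher and 4 lower for fl/fl. The wt/wt counts turned to 0 higher and 2 lower under quantile normalization and under centring on the genes above the filter. Muc2, the main mucin of goblet cells, read 648 and 1611 at day 4 and 676 and 583 at day 6, the same array standing out. It was 1 of 3 goblet genes 2-fold higher in fl/fl cultures at day 4, with Agr2 and Guca2a, and Mmp7 was the 1 Paneth gene. Over all genes, 1.38% were 2-fold higher in that comparison. Both those scalings left 2 goblet genes, and the centring left 0 Paneth genes.

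Markers of hormone-producing and tuft cells differed from Paneth and goblet markers in their day 6 genotype differences, and enterocyte markers did so too. The median fl/fl minus wt/wt difference at day 6 was 0.70, 0.50 and 0.65 for the enteroendocrine, tuft and enterocyte lists. It was -0.01 for the Paneth and 0.08 for the goblet list. Fabp1 and Slc2a2 (enterocyte), Alox5ap (tuft) and Gip (enteroendocrine) passed the filter only through the fl/fl day 6 array, where they were highest. In the enterocyte and tuft lists such genes raise the median, so part of this contrast comes from the filter. The tuft genes were mixed, from -0.03 (Cd24a) to 1.13 (Alox5ap). Of 11 enteroendocrine genes, 0 were 2-fold either way between the days for wt/wt and 2 were higher for fl/fl (0 after quantile normalization). At day 6 the genotype difference of 3 passed 2-fold: Chgb (1.42), Cck (1.22) and Gcg (1.47). Over all genes, 18.3% (wt/wt) and 12.2% (fl/fl) were higher at day 6 than at day 4. Between genotypes at day 6, 0.211% were higher in fl/fl cultures. Of 7 tuft cell genes, 1 and 2 were 2-fold higher at day 6, Rgs13 by 1.45 and 2.62. Rgs13 read 11.0 and 6.89 at day 4, below the filter intensity of 16.9, and 57.8 and 125 at day 6. Alox5ap was 1.13 higher in fl/fl than in wt/wt cultures at day 6. It read 13.6 and 10.1 at day 4 and 18.5 and 59.5 at day 6. Without the fl/fl day 6 array its mean would lie below the filter. In RNA from whole cultures, fewer cells of a type and less RNA per cell cannot be told apart, and the part of such shifts in the values of the members was not tested.

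The genes whose profiles over the 4 arrays lay closest to a member were sought for the 4 members that spanned at least 2-fold, by the Euclidean distance between the log2 values after subtracting each gene's mean. Closest to Hes1 were Zfp799 (distance 0.05), Rreb1 (0.06) and Naca (0.06), and Rreb1 read 108 and 95.2 at day 4 and 272 and 243 at day 6. Closest to Dll1 were Tcf7l2 (0.04), which encodes a transcription factor of the Wnt pathway, Sec61a2 (0.06) and Ikzf5 (0.07). Tcf7l2 read 42.8 and 59.4 at day 4 and 145 and 118 at day 6. It shared the crossing of the genotypes seen for Dll1, as did Sec61a2 and Ikzf5. Choosing genes by nearness to Dll1 selects for that crossing. Closest to the brighter Notch1 probe set were Slc35a1 (0.05), Pik3r1 (0.05) and Mlx (0.06). Nearest to Notch2 probe set 1455556_at were Mrpl40 (0.04), Lipt2 (0.06) and Ppp4c (0.07). Probe set 1451889_at of Notch2, which runs the opposite way, was not used. With 4 arrays such nearness is a description of these profiles.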

How the data were processed

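The deposited table holds 1 linear intensity per probe set and array. How the authors summarised, background-corrected and normalized these intensities is not given in the sources used here; per the labels, biotinylated cRNA was made from 100 ng of total RNA. The values were analysed as log2(intensity + 16) without further scaling. The platform's gene table gives 1 symbol to 34958 probe sets, several to 932, and does not list 9211; symbols were updated by Entrez ID with RefSeq's GRCm38.p6 table, which matched 34754. Gene counts leave out controls and any probe set with several symbols. The number of arrays limits the precision, and no p-value was computed. The calculation returned known changes put into test data, where a few missed decreases were allowed (Python 3.11.15, pandas 2.3.3, numpy 2.4.6). Only brighter genes were changed there. Recovery at the intensities of most members, such as Gfi1, Dll4 and Notch2, was therefore not checked. The members and lists were chosen with earlier results of these data known. Named beside the members were, per list, up to 4 genes by mean day difference and up to 3 by mean genotype difference. Any gene 2-fold between genotypes was named too. The other 2-fold genes of the Notch lists, dim relatives and defining markers of other cell types were named after their values were seen. So were markers near or below the filter. In all, 8 alternatives were tried: pseudocounts of 4 and 64, centring on all probe sets or on the genes above the filter, quantile normalization, the mean of a member's probe sets, leaving out x_at and s_at types, and no filter.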

Additional observations from a re-analysis of the deposited data

Results flagged for a closer look

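As deposited, 3 members had effects of opposite sign in the groups set side by side. None of these differences was tested, because each rests on 1 array per group. The genotype difference of Notch1 was 0.81 at day 4 and -0.0050 at day 6, a shift of -0.82; the day 6 value lay between -0.04 and 0.11 over the alternatives, so its sign is not settled. That of Dll1 was 0.35 and -0.31, a shift of -0.66. The day difference of Gfi1 was 0.21 for wt/wt and -0.26 for fl/fl cultures, a difference of -0.47, from values at the edge of the filter; the wt/wt value lay between -0.17 and 0.35 over the alternatives, so its sign is not settled either.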

How the results depend on the processing

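Each member's difference was recomputed in the 4 comparisons under 8 alternatives, of which centring on the genes above the filter was chosen after seeing the data. Of 320 recomputed differences, 306 kept their side of the 2-fold line, 11 fell short of it, 2 newly passed it and 1 difference of 2-fold changed sign: Notch2 between the days in wt/wt cultures, at -0.0085 with the mean of its probe sets, which run in opposite directions. Smaller differences that changed sign are counted as on the same side. The count of members 2-fold higher at day 6 in wt/wt cultures, 4 as deposited, was 1 with a pseudocount of 64, 2 after quantile normalization, 2 with the mean of probe sets and 1 with centring on the genes above the filter. In fl/fl cultures the count of 1 went to 0 with a pseudocount of 64 and 0 after quantile normalization. Between genotypes at day 4 the count of 0 went to 1 with a pseudocount of 4. The higher pseudocount shrinks every difference by construction; for the scalings the cause was not tested. Counts of all 2-fold genes moved too: between genotypes at day 4, a pseudocount of 4 gave 347 higher and 51 lower, and one of 64 gave 24 and 3. No paired analysis was possible because the labels give no replicate numbers and each group has 1 array, so replicates cannot be blocked; leaving out an array would empty its group. Intensities near the filter (Dll4 and Gfi1) limit what could be seen.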
